A study of Homo sapiens with 2 samples.

Results

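The proteasome is the barrel-shaped protease that degrades ubiquitin-tagged proteins, and its genes were followed in H9 cells with and without doxorubicin. Genes were taken by name, from all symbols that start with PSMA, PSMB, PSMC, PSMD, PSME, PSMF or PSMG and a number, which gave 49 of the 19220 symbols in the table. The cell line H9 comes from a human T cell lymphoma and is labelled wild type, and the anthracycline doxorubicin poisons topoisomerase II. Polyadenylated RNA was sequenced from cells at 0 h of doxorubicin (1 library) and from cells given 0.05 µM doxorubicin for 6 h (1 library). No library of untreated cells at 6 h was measured, so the drug and 6 h of culture cannot be told apart. Each condition is 1 library, so there is no test and no p-value. The intervals below are exact Clopper-Pearson intervals at 95% and cover counting error only, because reads are not independent molecules and no second library of either condition was measured. In RNA from a whole culture, a lower level in every cell and fewer cells with the transcript cannot be told apart.

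In the proteasome, a core particle of stacked alpha and beta rings holds the protease sites in its beta subunits, and the alpha rings gate the entry. A regulatory particle caps the core. Its base unfolds proteins with a ring of ATPases, and its lid removes the ubiquitin chain. Other caps, the PA28 and PA200 activators, open the gate without the ATPases, and dedicated chaperones build core and base. In lymphocytes and after interferon, 3 immunoproteasome beta subunits replace their constitutive counterparts and change which peptides are made for class I presentation.

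The untreated library held 33730703 counts and the treated library 50174434. Counts were converted to CPM, the count relative to library size, with TMM effective library sizes, and the log2 ratio of treated over untreated was taken after 0.5 was added to each count. The T cell receptor gene CD3E (7149 and 8864 counts) and the T cell kinase gene ZAP70 (10278 and 15639) were well detected. Of 12 T cell markers, 9 had at least 100 counts summed over both libraries. CD2 (0 and 2 counts), CD7 (8 and 8) and CD28 (8 and 13) were at or near 0. The summed T cell markers stood at 1286 CPM untreated and 1335 CPM treated. All 5 myeloid markers stayed below 100 counts, but the B cell gene CD79A (6007 and 6628 counts) and the epithelial gene EPCAM (2591 and 3236) were present in both libraries. A human stem cell line is also called H9, and its markers NANOG (0 and 0 counts) and SOX2 (0 and 2) were at or near 0, whereas POU5F1 had 105 and 110 counts.

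Of the 49 genes, 47 had at least 100 counts summed over both libraries, the level from which a gene was treated as measured, and the lowest of these sums was 1781. PSMA8, the alpha subunit of testis, and PSMB11, the beta subunit of thymus cortex, were at 0 counts throughout. A count of 0 leaves room for 0.0911 CPM in the untreated and 0.0584 CPM in the treated library, the worth of 3 counts. PSMC3IP matches the naming pattern but encodes a recombination factor and no proteasome part. It had 23.7 CPM untreated and 19.5 CPM treated, with 49.9% of its exons overlapped by MLX, and it is counted among the 47. Together the 49 genes took 0.805% of all counts untreated (0.802 to 0.808) and 0.714% treated (0.712 to 0.716).

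Most proteasome mRNAs had somewhat lower levels in the treated library, and a few had higher ones. The log2 ratio was below 0 for 40 of the 47 genes and above 0 for 7. Their median was -0.30 (interquartile range -0.49 to -0.14), beside 0.007 for all 11244 measured genes. The size rule for calling a gene higher or lower asked for a difference of 1.5-fold or more and a counting interval that left out equality. By this rule 2 of the 47 were higher, PSME3 and PSMD1, beside 7.26% of all measured genes. The rule called 9 lower, or 19.1%, beside 9.57% of all measured genes. Those 9 were PSMA3, PSMB3, PSMB4, PSMB10, PSME2, PSMD10, PSMG2, PSMG3 and PSMG4. Among the calls over all genes 43.1% were higher, and 56.0% under scaling by total counts. With a limit of 25% in place of 1.5-fold, 5 of the 47 were higher (20.4% of all genes) and 23 lower (21.5% of all genes). PSMD11 at -0.002 and PSMF1 at -0.04 turned positive under scaling by total counts, at 0.07 and 0.02.

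**Figure D1:**
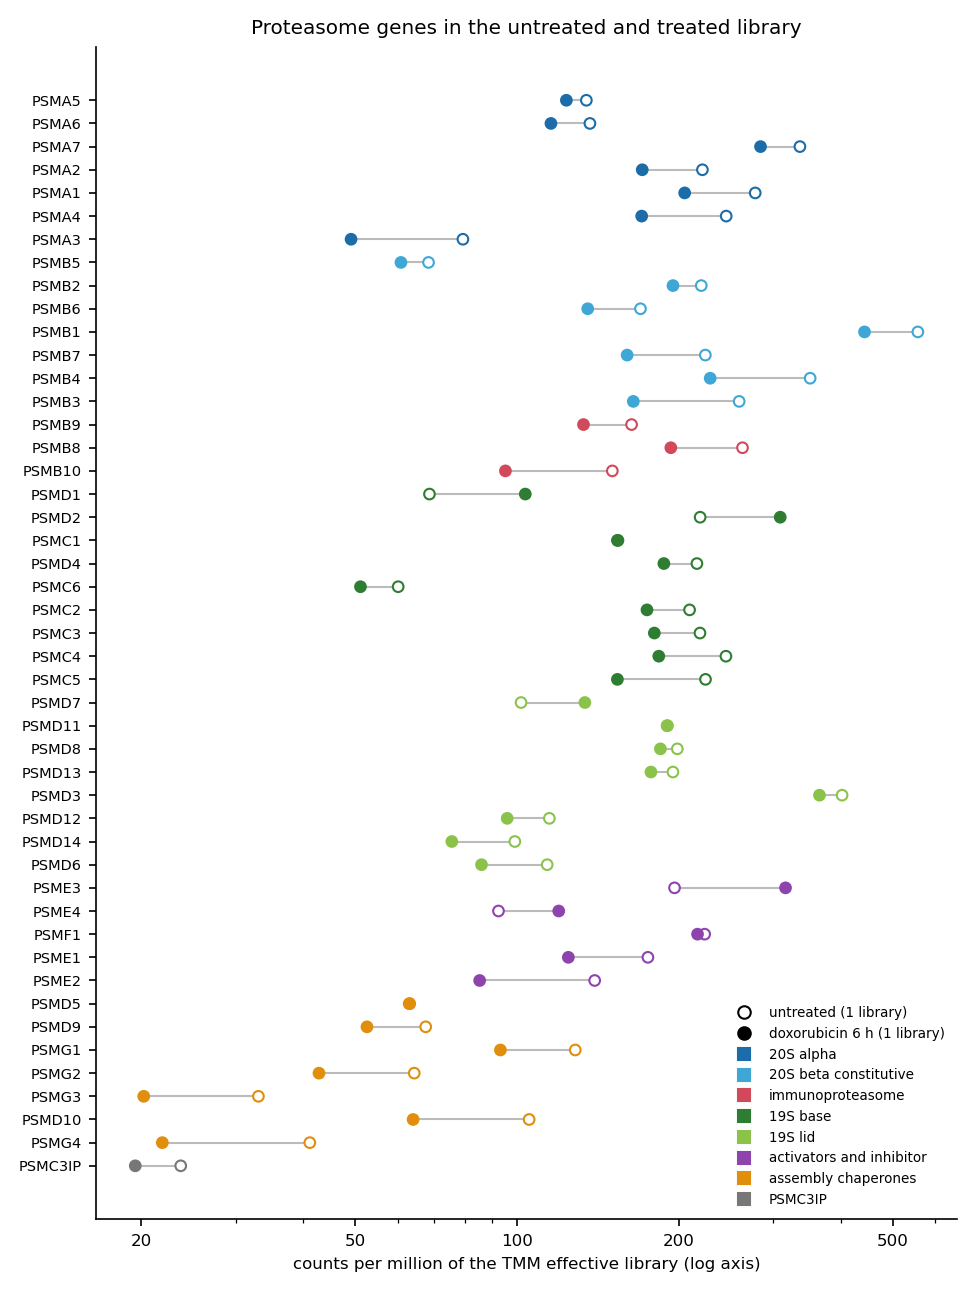
Level of each measured proteasome gene in CPM (log axis) in the untreated library (open circles) and in the treated library (filled circles), 1 library each, coloured by place in the complex. Most filled circles lie left of the open ones, while PSME3, PSMD1, PSMD2, PSMD7 and PSME4 lie to the right.

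Transcript length went with the ratio, in the whole table and among the proteasome genes. Spearman's rho between transcript length and log2 ratio was 0.55 across 11118 measured genes with lengths and 0.51 across the 47. These points share the same 2 libraries, and the value is a description across genes. Of the 47, 31 have transcripts under 2000 bases. Among these 31, 8 were lower (25.8%) with a median log2 ratio of -0.41, and among all 2537 measured genes under 2000 bases 28.5% were lower with a median of -0.37. After subtraction of a lowess curve of log2 ratio on transcript length, the median of the 47 was -0.04, with 21 above and 26 below 0. Then 2 genes were higher, PSME3 and PSMD7 (4.87% of all genes), and 1 lower, PSMG4 (4.61% of all genes). With transcript length, coding length and GC content removed together, the median was -0.13. PSME3 was then the only one of the 47 that was higher (4.16% of all genes) and PSMG4 the only one that was lower (3.55% of all genes). The part of transcript length in the ratio of any single gene was not tested.

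**Figure D2:**
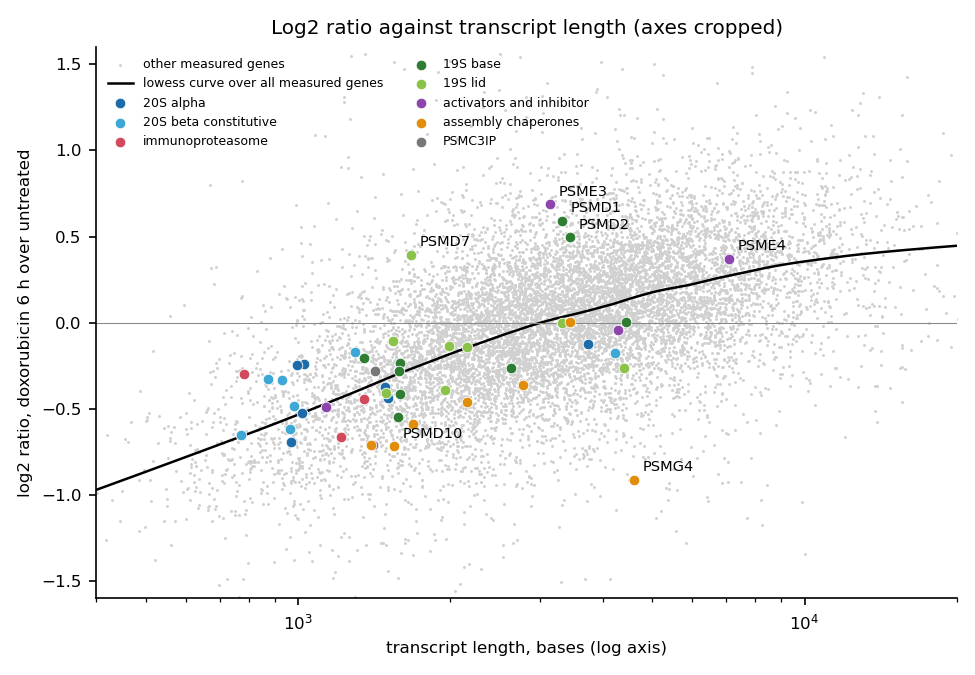
Log2 ratio of treated over untreated against transcript length in bases (log axis, both axes cropped), for all measured genes (grey), the proteasome genes (coloured by place in the complex) and a lowess curve through all genes (black). Most proteasome genes follow the curve, while PSME3 and PSMD7 lie above it and PSMG4 below it.

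Proteasome genes are known to be switched on together by the transcription factor NFE2L1 through antioxidant response elements, and many of their promoters carry CCAAT boxes, the site of NF-Y. The 250 bases before the start sites of 42 of the 48 genes other than PSMC3IP were searched in RefSeq promoter windows of GRCh38.p14, a later build than the hg19 of the counts. The core of the response element was searched as TGACNNNGC and the NF-Y site as CCAAT, both strands each. The response element core was found in 13 of 51 windows (25.5%), beside 10.9% of all 35116 windows, and CCAAT in 37.3%, beside 32.01%. Measured genes with the response element core had a median log2 ratio of -0.46 (13 genes, from -0.71 to 0.37), and those without it -0.24 (27 genes, from -0.91 to 0.69). These medians were taken without adjustment for transcript length, and whether a match goes with the ratio was not tested. Genes with several windows counted as having the core if any window held it. PSMA4, PSMC5 and PSMG2, counted with it, also have windows without it. A match describes the letters and shows no binding. PSMA7, PSMB1, PSMB6, PSMB7, PSMD4 and PSMG3 were not matched to a window. Printed 5′ to 3′ are the windows of both genes called higher, of PSMB3 and PSME2, which hold the core and were lower, and of PSMB9, whose window lies between it and TAP1. Capitals mark the matches: TGACTTTGC in PSMB3 and TGACCCAGC in PSME2 on the gene's strand, GCCTCGTCA in PSMB9 on the opposite strand, and CCAAT or ATTGG.
PSME3, chr17:42833147-42833396, strand plus: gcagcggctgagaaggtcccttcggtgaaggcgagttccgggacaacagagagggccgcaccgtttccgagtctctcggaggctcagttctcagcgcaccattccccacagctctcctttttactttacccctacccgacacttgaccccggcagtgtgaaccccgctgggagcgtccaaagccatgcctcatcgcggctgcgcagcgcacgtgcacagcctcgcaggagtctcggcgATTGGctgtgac
PSMD1, chr2:231056617-231056866, strand plus: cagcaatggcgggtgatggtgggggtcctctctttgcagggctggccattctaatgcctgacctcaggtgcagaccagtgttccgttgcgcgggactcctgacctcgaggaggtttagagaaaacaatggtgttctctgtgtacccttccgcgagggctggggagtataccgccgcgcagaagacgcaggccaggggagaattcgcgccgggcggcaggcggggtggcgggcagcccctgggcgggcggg
PSMB3, chr17:38752491-38752740, strand plus: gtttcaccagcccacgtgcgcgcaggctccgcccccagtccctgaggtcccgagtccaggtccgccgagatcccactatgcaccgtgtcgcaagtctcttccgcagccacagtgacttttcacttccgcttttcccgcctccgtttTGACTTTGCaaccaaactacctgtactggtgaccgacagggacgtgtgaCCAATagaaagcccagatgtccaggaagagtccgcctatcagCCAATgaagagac
PSME2, chr14:24146611-24146860, strand minus: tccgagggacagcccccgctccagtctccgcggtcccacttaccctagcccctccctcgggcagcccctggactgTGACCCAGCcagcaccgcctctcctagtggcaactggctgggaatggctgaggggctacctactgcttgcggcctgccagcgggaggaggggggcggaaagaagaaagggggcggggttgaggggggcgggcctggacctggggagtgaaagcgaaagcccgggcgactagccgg
PSMB9, chr6:32853942-32854191, strand plus: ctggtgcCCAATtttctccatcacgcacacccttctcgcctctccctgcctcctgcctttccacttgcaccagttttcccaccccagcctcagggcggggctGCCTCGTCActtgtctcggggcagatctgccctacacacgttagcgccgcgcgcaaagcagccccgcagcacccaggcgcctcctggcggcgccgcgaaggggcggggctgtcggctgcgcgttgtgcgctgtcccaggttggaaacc
PSMD1 has neither motif in this window, and PSME3 has 1 CCAAT match near its start.

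All 7 alpha subunit genes of the core had log2 ratios below 0, from -0.12 for PSMA5 to -0.69 for PSMA3, with a median of -0.37. PSMA3 had 79.3 CPM untreated and 49.1 CPM treated, and was 1.61-fold lower (1.53 to 1.71). It was the only 1 of the 7 alpha genes past the size rule, beside 9.57% of all measured genes called lower. PSMA7 was the most abundant alpha mRNA per length, with 337 CPM per kilobase of transcript untreated and 285 treated. PSMA4 went from 245 to 171 CPM, a log2 ratio of -0.52, and PSMA1 from 277 to 205 CPM, a log2 ratio of -0.44. PSMA6 shares 25% of its sampled 50-base stretches with pseudogenes elsewhere, so its ratio of -0.24 is less certain. After the length adjustment the alpha genes ranged from -0.19 to 0.29, around a median of -0.05.

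The 7 constitutive beta genes were below 0 as well, with a median of -0.33. PSMB4, a beta subunit without protease activity, had 351 CPM untreated and 229 CPM treated, and was 1.53-fold lower (1.496 to 1.57). PSMB3, another subunit without protease activity, went from 259 to 165 CPM and was 1.57-fold lower (1.53 to 1.62). These were the only 2 of the 7 constitutive beta genes past the size rule, beside 9.57% of all measured genes called lower. With scaling by total counts PSMB4 was not past it. PSMB3 has a transcript of 773 bases, and after the length adjustment its log2 ratio was 0.006. The catalytic subunits PSMB5, with chymotrypsin-like activity, PSMB6, with caspase-like activity, and PSMB7, with trypsin-like activity, had log2 ratios of -0.17, -0.33 and -0.48. PSMB1 was the most abundant proteasome mRNA per length in both libraries, with 600.1 CPM per kilobase untreated and 477 treated. Within the 14 constitutive core genes the highest and lowest level per kilobase differed 16.6-fold untreated and 14.4-fold treated, and their order was nearly the same (rho 0.996 across 14 genes that share the libraries and the lengths). The lowest of the 14 was PSMA5, with an annotated transcript of 3729 bases, at 36.1 and 33.1 CPM per kilobase.

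The 3 immunoproteasome genes were expressed in both libraries, and all 3 had log2 ratios below 0, around a median of -0.44. PSMB8, which replaces PSMB5, had 263 CPM untreated and 193 CPM treated, a log2 ratio of -0.44 (-0.48 to -0.40). PSMB9, which replaces PSMB6, went from 163 to 133 CPM, at -0.30 (-0.35 to -0.25). PSMB10, which replaces PSMB7, went from 150.4 to 95.2 CPM and was 1.58-fold lower (1.52 to 1.64). It was the only 1 of the 3 past the size rule, beside 9.57% of all measured genes called lower. Within a library, the ratio of 2 genes does not depend on scaling. PSMB8 had 3.84 counts per count of PSMB5 untreated and 3.18 treated, so the ratio was 0.828 times as high (0.778 to 0.881). For PSMB9 over PSMB6 the ratios were 0.963 and 0.982, a change of 1.02 (0.970 to 1.07), within counting error. For PSMB10 over PSMB7 they were 0.671 and 0.594, a change of 0.884 (0.841 to 0.930). Per kilobase, the untreated ratios were 3.68, 1.07 and 0.540 in the same order. After the length adjustment, PSMB8, PSMB9 and PSMB10 were at -0.06, 0.36 and -0.23.

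The peptide transporter genes beside the immunoproteasome genes had ratios above 0. PSMB9 and TAP1, the neighbouring transporter gene, start on either side of the same stretch of chromosome 6. TAP1, named after its values were seen, had 447 CPM untreated and 600.3 CPM treated, a log2 ratio of 0.43. The count ratio of PSMB9 to TAP1 was 0.366 untreated and 0.221 treated, a 1.65-fold decrease (1.59 to 1.72). That of PSMB8 to TAP2, the other chain of the transporter, was 1.19 untreated and 0.566 treated, a 2.11-fold decrease (2.03 to 2.19). The annotated transcripts are 782 bases for PSMB9 and 2959 for TAP1, and after the length adjustment both were above 0, at 0.36 and 0.43. TAP2, with 5684 bases, was at 0.42 after it, while PSMB8 was at -0.06. In a list of 11 class I presentation genes the median log2 ratio was 0.23. Genes of this list past the size rule included TAP2 at 1.55-fold higher (1.51 to 1.59) and the peptide-trimming ERAP1 at 1.53-fold higher (1.49 to 1.58).

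**Figure D3:**
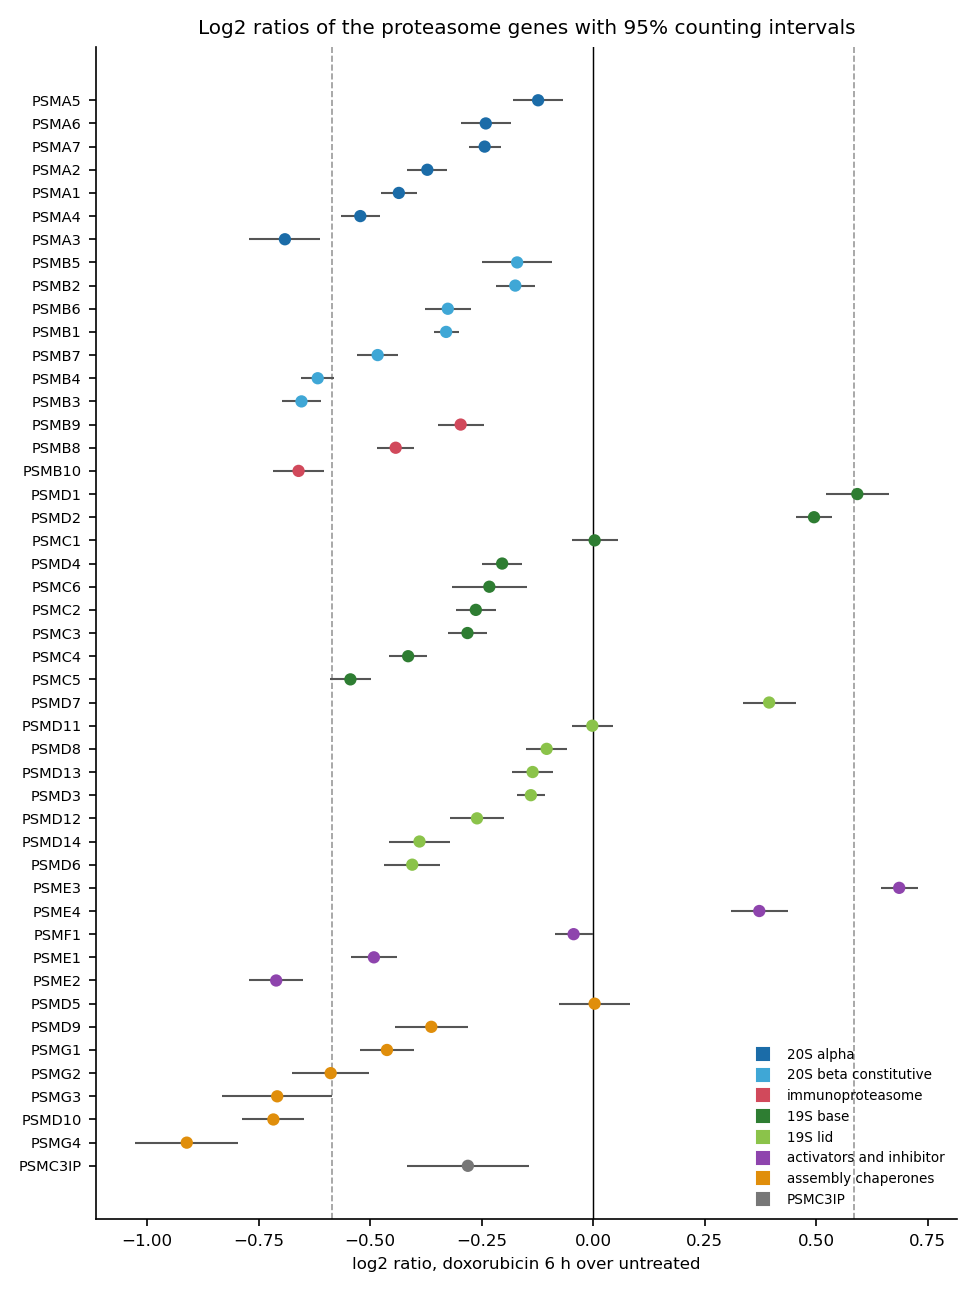
Log2 ratio of treated over untreated for each measured proteasome gene, ordered within its place in the complex, with its 95% counting interval as a bar. Dashed lines mark a 1.5-fold difference, past which lie PSME3 and PSMD1 on the right and 9 genes on the left.

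The base of the regulatory particle was divided. Its scaffold subunits PSMD1 and PSMD2, the largest of the regulatory particle, had log2 ratios above 0. Of the 6 ATPase genes, 5 were below 0. The size rule called 0 of the 6, beside 7.26% of all measured genes higher and 9.57% lower. PSMD1 had 68.7 CPM untreated and 103.6 CPM treated, and was 1.51-fold higher (1.43 to 1.58), so its interval reaches below the size limit. PSMD2 went from 219 to 309 CPM and was 1.41-fold higher (1.37 to 1.45), not past the limit. The count ratio of PSMD1 to PSMD2 was 0.314 untreated and 0.335 treated. The ATPases PSMC1 to PSMC6 ranged from a log2 ratio of 0.003 for PSMC1 to -0.54 for PSMC5, around a median of -0.27. PSMC5 went from 224 to 154 CPM, with 23.5% of its exons overlapped by FTSJ3. PSMC1 has 82.1% of its exons overlapped by NRDE2 and 28.98% of its stretches shared with pseudogenes, and PSMC6 shares 35.5%, so both are uncertain. The ubiquitin receptor PSMD4, with 18.9% of its stretches shared, went from 216 to 188 CPM. After the length adjustment PSMD1 and PSMD2 were at 0.56 and 0.45, and PSMD1 was no longer past the size limit.

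In the lid, 7 of 8 genes had log2 ratios below 0 and 1 above, around a median of -0.14. The size rule called 0 of the 8, beside 7.26% of all measured genes higher and 9.57% lower. PSMD7, which forms a dimer with the deubiquitinase PSMD14, had 101.7 CPM untreated and 134 CPM treated, a log2 ratio of 0.39 (0.34 to 0.45). PSMD14 itself went from 99.1 to 75.6 CPM, a log2 ratio of -0.39 (-0.46 to -0.32). The partners of that dimer lay on opposite sides of 0. Their transcripts have 1670 bases (PSMD7) and 1954 bases (PSMD14). After the length adjustment PSMD7 was at 0.66, past the size limit, and PSMD14 at -0.20. PSMD3 was the most abundant lid mRNA per kilobase, with 187 CPM per kilobase untreated and 169 treated. PSMD11 hardly differed, at 190.5 and 190.2 CPM. PSMD13, with 15.04% of its exons overlapped by SIRT3, was at -0.14.

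The activators and the inhibitor ranged from a log2 ratio of -0.71 to 0.69. By the size rule 1 of 5 was higher and 1 lower, beside 7.26% and 9.57% of all measured genes. PSME3 encodes PA28 gamma, a nuclear activator known for ubiquitin-independent turnover of cell cycle regulators such as p21. It had 6469 counts untreated and 16228 treated, or 196 and 316 CPM, and was 1.61-fold higher (1.56 to 1.66), the highest ratio of the 47. It was above the size limit under every scaling and length adjustment run apart from the 2-fold limit, and its log2 ratio was 0.67 after adjustment for its longest transcript of 3144 bases and 1.198 after adjustment for its principal transcript of 998 bases. PSME4, which encodes the nuclear activator PA200, went from 92.4 to 119.6 CPM, a log2 ratio of 0.37 (0.31 to 0.44), and was at 0.10 after adjustment of its 7099-base transcript. PSME1 and PSME2 encode the alpha and beta subunits of the interferon-inducible PA28. PSME1 went from 175 to 125 CPM, a log2 ratio of -0.49 (-0.54 to -0.44). PSME2 went from 139 to 85.2 CPM and was 1.64-fold lower (1.57 to 1.71), with 11.97% of its exons overlapped by RNF31 and 10.9% of its stretches shared. After the length adjustment PSME1, with a transcript of 1136 bases, was at -0.02. PSME2 was at -0.35 after it and not past the size limit. The count ratio of PSME3 to PSME1, without adjustment for length, was 1.12 untreated and 2.54 treated, a change of 2.26 (2.16 to 2.37). The inhibitor PSMF1 had 223 CPM untreated and 217 treated.

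Assembly chaperone genes had the lowest median of the 7 groups, with a median log2 ratio of -0.59. By the size rule 4 of 7 were lower and 0 higher, beside 9.57% and 7.26% of all measured genes, and after the length adjustment 1 of 7 was lower. PSMG1 and PSMG2 form one chaperone dimer of the alpha ring, and PSMG3 and PSMG4 another. PSMG4 had 41.2 CPM untreated and 21.9 CPM treated and was 1.88-fold lower (1.74 to 2.04), the lowest ratio of the 47. PSMG3 went from 33.0 to 20.2 CPM and was 1.63-fold lower (1.5 to 1.78). PSMG2 went from 64.4 to 42.8 CPM and was 1.504-fold lower (1.42 to 1.597), with 17.0% of its exons overlapped by CEP76. Under scaling by total counts PSMG2 was at -0.52 and not past the size limit. PSMG1 went from 128 to 93.1 CPM, at -0.46. Of the base chaperones, PSMD10, also known as gankyrin, went from 105 to 64.1 CPM and was 1.64-fold lower (1.57 to 1.72). PSMD9, with 15.7% of its exons overlapped by WDR66, was at -0.36. PSMD5 did not differ beyond counting error, at 63.0 and 63.15 CPM and a log2 ratio of 0.003 (-0.08 to 0.08). After the length adjustment all 7 were below 0, from -1.06 to -0.04, with a median of -0.33, beside 0.003 for all genes. The annotation gives PSMG4 a longest transcript of 4603 bases and a principal one of 838 bases. Adjusted on principal transcripts, an alternative added after the data were seen, PSMG4 was at -0.31 and not past the size limit.

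Other proteins of the complex lie outside the naming pattern and were listed separately. Of 13 such partners 0 were higher and 1 was lower, beside 7.26% and 9.57% of all measured genes, around a median log2 ratio of -0.25. SEM1, a small lid subunit, had 78.7 CPM untreated and 35.0 CPM treated and was 2.25-fold lower (2.12 to 2.39), below every gene that matched the pattern. It was also past the size rule after both adjustments on longest transcripts, at -1.12 and -0.64. Its longest annotated transcript has 2667 bases, and its ratio adjusted on principal transcripts is not given here. POMP, the maturation protein of the core, went from 115 to 78.4 CPM, a log2 ratio of -0.56 (-0.62 to -0.49). The ubiquitin receptor ADRM1, with 16.4% of its exons overlapped by LAMA5, went from 253 to 212 CPM, at -0.25. After adjustment for transcript length POMP was at -0.17 and ADRM1 at 0.08. With coding length and GC content added, POMP was at 0.20 and ADRM1 at 0.06.

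Genes that control proteasome transcription had a median log2 ratio of 0.24 over 12 measured members, with 7 above 0 and 5 below. By the size rule 1 was higher and 0 lower, beside 7.26% and 9.57% of all measured genes. NFE2L1 had 634 CPM untreated and 863 CPM treated, a log2 ratio of 0.44 (0.42 to 0.47), and was at 0.28 after the length adjustment. DDI2, the protease that cleaves NFE2L1 into its active form, had 50 counts untreated and 263 treated and was 3.35-fold higher (2.49 to 4.66). DDI2 has 17.4% of its exons overlapped by RSC1A1, a gene nested in it, which had 91 and 270 counts. Summed over both genes the ratio was 2.42-fold (2.01 to 2.94). RSC1A1 was named after its values were seen, as were the NF-Y genes. NFYA, NFYB and NFYC, the subunits of NF-Y, had log2 ratios of -0.01, -0.41 and -0.43, and none passed the size rule. Ubiquitin receptors and the VCP segregase, which deliver substrates, had a median of 0.19 over 11 genes with 2 higher, beside 7.26% of all measured genes. The 2 were NPLOC4 at 1.53-fold (1.48 to 1.59) and UBQLN1 at 1.504-fold (1.45 to 1.56). Neither was past the limit after adjustment for length.

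**Figure D4:**
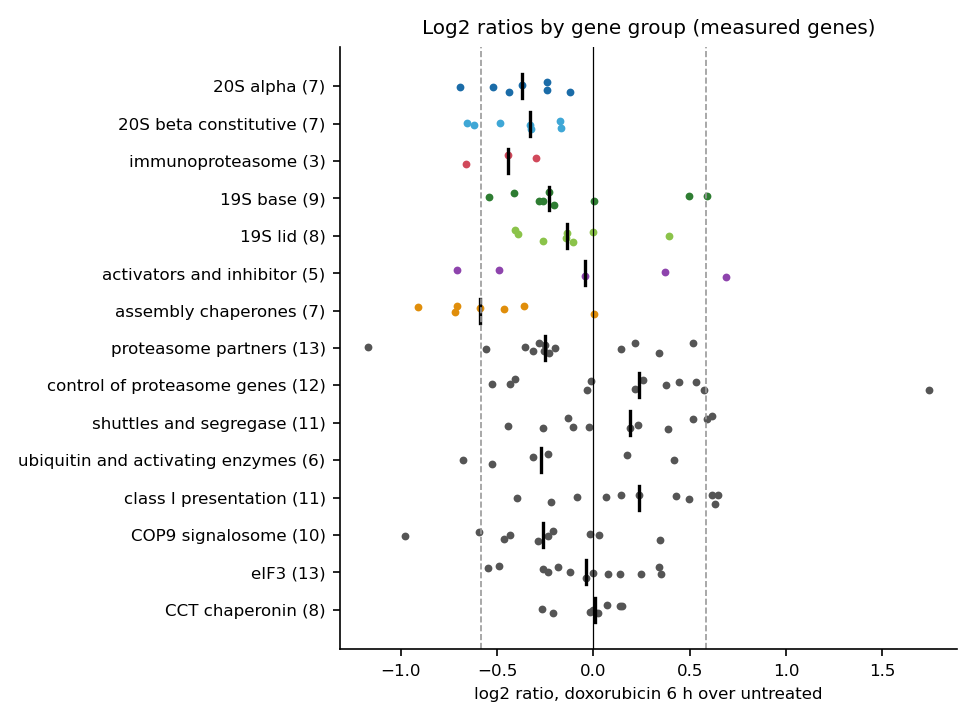
Log2 ratio of each measured gene (points) by proteasome group (coloured) and by list of related genes (grey), with the median of each as a black bar and dashed lines at a 1.5-fold difference. Vertical scatter within a row only separates points. Assembly chaperones have the lowest median of the lists shown, -0.59, and genes that control proteasome transcription have a median of 0.24.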

How the data were processed

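Polyadenylated RNA of 2 H9 cultures, 1 per condition, was measured. The authors deposited raw read counts per gene symbol, with neither scaling nor length correction. HISAT2, featureCounts and hg19 are named per the submitters' processing notes, whereas versions, annotation, strand setting and handling of multiply aligned reads were not given in the sources used here. Counts were scaled with TMM in edgeR 4.0.16 (R 4.3.3), and ratios, exact Clopper-Pearson intervals and conditional intervals of count ratios were computed in scipy 1.17.1. The size rule was tested on simulated counts with Poisson counting error only, which hold no variation between libraries. A count of 0 allows up to 3 counts. GENCODE release 29 on GRCh38 gave transcript length (longest RefSeq-paired transcript), coding length and GC content, matched to 99.7% of measured genes. Exon overlap was taken with other genes of the table on either strand, and shared stretches as 50-base windows every 25 bases found at another locus, each named from 10%. Every measured member may be named. From the other lists only genes past the size rule are named, besides NFE2L1, POMP, ADRM1 and SEM1, and TAP1, RSC1A1 and the NF-Y genes, which were chosen after their values were seen. Members and lists were chosen with earlier results of these data known. Alternatives were DESeq2 1.42.0 size factors, total-count and upper-quartile scaling, count minimums, size limits, a 99% interval, 5 added counts, length adjustments (lowess span 0.3, splines) and exclusion of overlapped members. Results of some genes of the related lists are not reported here.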

Additional observations from a re-analysis of the deposited data

How the results depend on the processing

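No paired analysis was possible because each condition has 1 library, and for the same reason no library could be left out. The count of 9 lower and 2 higher proteasome genes depended on the size limit, with 23 and 5 at a 25% limit and 0 and 0 at 2-fold. Over all measured genes 2294 were higher and 2416 lower at a 25% limit, and 128 and 175 at 2-fold, beside 816 and 1076 at 1.5-fold. DESeq2 size factors, upper-quartile scaling, other count minimums, a 99% interval and 5 added counts kept all 11 calls. Total-count scaling kept 9 and moved the median of the 47 genes from -0.30 to -0.23.

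Adjustment for transcript length left 1 lower gene, a median of -0.0407 over the 47 genes, and medians of -0.0452, 0.0608 and -0.0636 for alpha, constitutive beta and immunoproteasome genes, with PSMB3 at 0.00578. The PSMB10 to PSMB7 change was then 0.819, and all measured genes gave 541 higher and 513 lower. With coding length and GC content added, 1 gene was lower and 1 higher, the median was -0.13, the 3 group medians were 0.0566, -0.11 and -0.22, and all genes gave 462 higher and 395 lower. With principal transcripts, 0 genes were lower, the median was -0.0505, the group medians were -0.0726, 0.0381 and 0.00657, the PSMB10 to PSMB7 change was 0.817, and 522 of all genes were lower. The cause of these shifts was not tested. Leaving out the 10 genes with overlapped or shared exons gave 2 higher and 7 lower. Counting intervals were widest for PSMC3IP, from -0.42 to -0.14 on the log2 scale, and the variation between libraries of a condition was not measured.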

Other observations

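Complexes related to the proteasome were listed for reference. The COP9 signalosome, whose subunits are related to those of the lid, had 2 of 10 genes lower and 0 higher, beside 9.57% and 7.26% of all measured genes, around a median log2 ratio of -0.26. These were COPS9, from 279 to 221 counts and 1.97-fold lower (1.64 to 2.36), and COPS6, 1.51-fold lower (1.44 to 1.58). Translation initiation factor eIF3, the other relative of the lid, had a median of -0.04 over 13 genes. The CCT chaperonin, a ring that folds actin and tubulin, had a median of 0.009 over 8 genes, from -0.27 to 0.15. In neither of these was a gene past the size rule, and after the length adjustments the same held for COP9. Without adjustment, ribosomal protein genes lay lower than the proteasome genes, with medians of -0.70 over 82 cytosolic and -0.46 over 77 mitochondrial members. Their median transcripts had 1010.5 and 1455 bases, beside 1579 for the proteasome genes. After adjustment for transcript length the medians were -0.11 and -0.07, beside -0.04 for the proteasome genes. With coding length and GC content added they were -0.24 and -0.05, beside -0.13. The differences between these groups were not tested.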
